A study of Mus musculus with 2 samples.

Results

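The keratin genes of the mouse were examined in a map of open chromatin of the newborn stomach. The set held every protein-coding gene of the GENCODE M21 annotation (mouse genome build mm10, GRCm38) whose symbol is Krt followed by a digit, which gave 53 of 21911 protein-coding genes. Of these, 27 lay in a cluster on chromosome 11, which holds type I keratins, and 26 in a cluster on chromosome 15, which holds type II keratins together with the type I gene Krt18. The rule uses no measured value. By textbook expression they were sorted into 6 simple keratins (Krt7, Krt8, Krt18, Krt19, Krt20 and Krt23), 15 stratified keratins, 8 keratins of the inner root sheath and companion layer of the hair follicle, 16 hair and nail keratins and 8 others.

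Accessibility was measured by DNase-seq: exposed DNA is cut by DNase I, and the cut ends are sequenced. Stomach of B6NCrl mice was taken at an age of 0 days after birth, with no genetic change or treatment named, and gave 1 group of 2 biological replicates with 1 library each. Both libraries carry the same donor label, sex was not collected, the part of the stomach is not stated, and sequencing instruments are named only for replicate 2. With a single group no comparison between conditions was possible, and the keratins are described beside all protein-coding genes and beside each other, with no test.

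Keratins form the intermediate filaments of epithelial cells, and each filament needs a type I and a type II partner. Single-layered epithelia such as the gastric glands use simple keratins, chiefly the pair Krt8 and Krt18, while layered epithelia such as skin use Krt5 and Krt14 in the basal cells and other pairs above them. The mouse stomach has both kinds of lining, a glandular part and a squamous forestomach, and it has no hair.

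Peaks, the sites of at most 150 bp that the authors called in each replicate, numbered 139374 in replicate 1 and 152779 in replicate 2 on the autosomes, X and Y. Peaks of both replicates that overlapped by 1 bp or more were joined into 105543 shared regions. Each peak carries a signal, the authors' own value with no unit, which was used only to describe and rank peaks within a list. Read numbers are unknown here, so a keratin without a peak may hold a site too weak to be called. The tissue label was checked against marker genes. A shared region within 1 kb of a start was found at all 10 glandular markers (among them Tff1, Gkn1, Atp4a and Muc6), 6 of 10 squamous markers, 3 of 4 liver markers and 0 of 3 skin markers, against 66.4% of all protein-coding genes. The squamous and liver shares lie near that of all genes and say little about the tissue. Among the squamous markers Trp63, Dsg3 and Sprr3 had no start peak in either replicate, and Ivl had one in replicate 2 alone. In bulk tissue a site open in few cells and a site weakly open in many cells cannot be told apart.

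The following sequences stand for the keratins that the results turn on: the simple keratins with an open start, the basal pair Krt5 and Krt14, and the strongest open region away from a start in each cluster. They were read from the GRCm38 genome, each 5′ to 3′ on the strand of its gene, and for the last pair on the plus strand. Capitals mark matches, on either strand, to the motifs searched. For Krt8, Krt18, Krt19 and Krt7, whose strongest start region runs into the transcribed sequence, the 150 bases before the principal start are shown, of which 23, 84, 25 and 146 bases lie in the region; the others are whole regions.
Krt8, chr15:102004483-102004632, minus strand: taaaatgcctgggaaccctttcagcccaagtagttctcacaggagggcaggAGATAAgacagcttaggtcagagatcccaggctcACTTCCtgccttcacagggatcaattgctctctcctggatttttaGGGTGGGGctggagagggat
Krt18, chr15:102028030-102028179, plus strand: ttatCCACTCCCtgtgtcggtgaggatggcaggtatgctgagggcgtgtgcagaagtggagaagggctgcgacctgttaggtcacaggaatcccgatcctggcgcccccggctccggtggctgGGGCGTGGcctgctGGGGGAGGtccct
Krt19, chr11:100146121-100146270, minus strand: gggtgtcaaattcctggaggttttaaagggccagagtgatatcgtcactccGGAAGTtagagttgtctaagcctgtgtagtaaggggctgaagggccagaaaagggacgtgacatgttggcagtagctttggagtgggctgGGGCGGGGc
Krt7, chr15:101412252-101412401, plus strand: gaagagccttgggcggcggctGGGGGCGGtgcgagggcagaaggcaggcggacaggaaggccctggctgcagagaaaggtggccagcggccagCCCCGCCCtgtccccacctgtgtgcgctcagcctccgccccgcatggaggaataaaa
Krt23, chr11:99493116-99493365, minus strand: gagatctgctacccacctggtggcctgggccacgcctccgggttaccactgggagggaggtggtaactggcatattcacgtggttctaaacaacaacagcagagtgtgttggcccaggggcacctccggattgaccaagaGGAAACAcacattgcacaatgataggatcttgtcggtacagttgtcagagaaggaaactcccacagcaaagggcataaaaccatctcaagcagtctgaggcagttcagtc
Krt5, chr15:101713856-101714005, minus strand: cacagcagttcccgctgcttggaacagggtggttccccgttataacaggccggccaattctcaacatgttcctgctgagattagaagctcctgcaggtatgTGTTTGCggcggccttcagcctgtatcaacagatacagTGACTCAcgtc
Krt14, chr11:100206336-100206525, minus strand: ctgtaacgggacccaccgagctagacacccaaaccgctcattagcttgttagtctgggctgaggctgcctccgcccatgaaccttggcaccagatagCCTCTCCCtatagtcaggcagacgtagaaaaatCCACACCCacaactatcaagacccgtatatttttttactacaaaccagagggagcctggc
Chromosome 11, upstream of Krt19, chr11:100158116-100158285: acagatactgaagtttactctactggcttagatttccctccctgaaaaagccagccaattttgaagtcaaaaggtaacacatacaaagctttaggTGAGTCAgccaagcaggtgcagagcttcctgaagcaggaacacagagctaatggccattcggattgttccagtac
Chromosome 15, between Krt78 and Krt8, chr15:101984336-101984505: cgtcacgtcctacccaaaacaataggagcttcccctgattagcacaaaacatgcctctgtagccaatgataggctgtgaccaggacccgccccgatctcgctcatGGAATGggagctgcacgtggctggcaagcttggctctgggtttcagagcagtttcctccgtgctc

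Most keratin genes had no shared region at a start in the newborn stomach, whereas 5 of the 6 simple keratins had one. A shared region lay within 1 kb of an annotated start of 14 of the 53 keratins (26.4%), against 66.4% of all protein-coding genes. In replicate 1 a start peak was found at 16 keratins, against 68.2% of all genes. In replicate 2 it was found at 17 keratins, against 69.4% of all genes. Counting only the principal start of each gene, that of the transcript with the best APPRIS tag, 11 keratins had a shared region, against 62.2% of all genes. The 14 were Krt7, Krt8, Krt18, Krt19 and Krt23 of the simple class, Krt1, Krt5, Krt10 and Krt14 of the stratified class, Krt75 of the companion layer, the hair keratins Krt33a and Krt86, and Krt78 and Krt80 of the others.

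By class, the simple keratins had a shared start region at 5 of 6 members (83.3%) and the stratified keratins at 4 of 15 (26.7%). For the inner root sheath and companion layer it was 1 of 8 (12.5%), for hair and nail 2 of 16 (12.5%), and for the others 2 of 8 (25%). Of all protein-coding genes 66.4% had one. The simple class, with only 6 genes, was the closest to that share, and every other class lay well below it. The simple keratins had a start peak at 5 members in replicate 1 and at all 6 in replicate 2, and the stratified keratins at 4 in each replicate. The order simple above stratified therefore held in each replicate alone. Without Krt23 the simple share was 80.0%. With 6 more keratins counted as stratified, the stratified share was 28.6%. On chromosome 11, 5 of 27 keratins (18.5%) had a shared start region, and on chromosome 15, 9 of 26 (34.6%). Replicate 1 had a start peak at 7 keratins of chromosome 11 and 9 of chromosome 15, and replicate 2 at 7 and 10. The distance between the clusters thus rested on 2 to 4 genes.

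**Figure D1:**
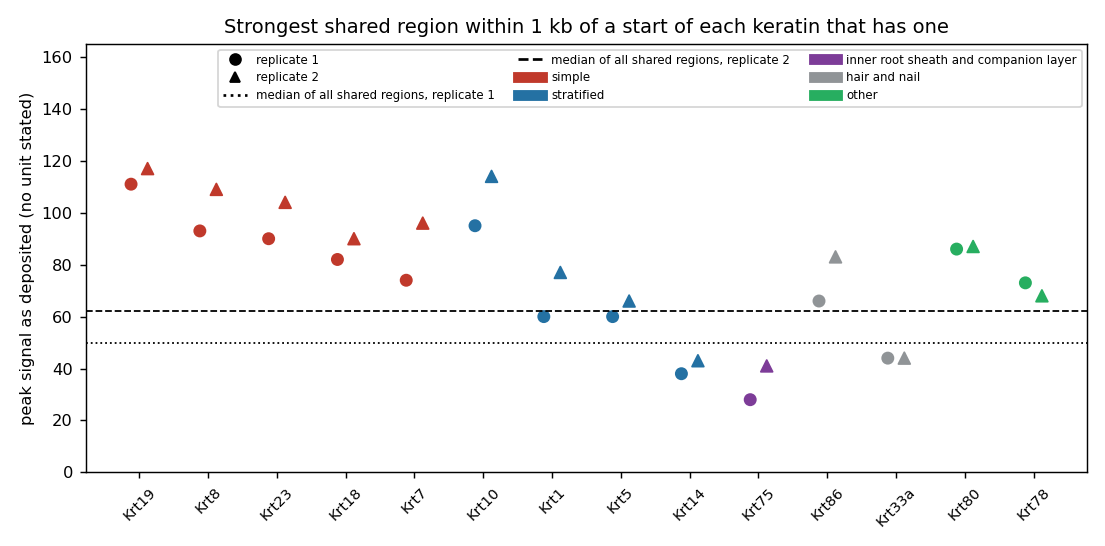
Signal of the strongest shared region within 1 kb of a start, for the 14 keratins that have one, grouped by class; circles are replicate 1, triangles replicate 2, and the lines are the medians of all shared regions (50 in replicate 1, 62 in replicate 2). Krt14, Krt75 and Krt33a lie below both lines, and the other 11 keratins lie above them.

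Krt19, the smallest keratin and a mark of ducts and glandular progenitors, had the strongest keratin start. Its gene lies on the minus strand at chr11:100140810-100148665 and has 3 annotated starts. The region over its principal start, chr11:100145996-100146145, is centred in the untranslated part of exon 1 and had a signal of 111 (replicate 1) and 117 (replicate 2). Further shared regions at its starts had signals of 94 and 107, 66 and 81, and 73 and 69. Replicate 1 also had a peak of signal 91 centred at -211 bp from the principal start (negative distances are upstream), with no partner in replicate 2.

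Krt8 and Krt18, the partner pair of simple epithelia, lie side by side on chromosome 15 and point away from each other. Krt8 is on the minus strand at chr15:101996698-102004482. The region over its start, centred in the untranslated part of exon 1, had a signal of 93 (replicate 1) and 109 (replicate 2). Krt18 is on the plus strand at chr15:102028180-102032027. Its start region had signals of 82 and 90, and a region in intron 1, centred 851 bp downstream, had 75 and 87. Both genes were open in both libraries, and in each library the start region of Krt8 had the higher signal.

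Krt7, a type II keratin of ducts and other simple epithelia, is on the plus strand at chr15:101411043-101430313. Its principal start carried a region of signal 74 in replicate 1 and 96 in replicate 2, and an earlier annotated start one of 72 and 81. Krt23, a type I keratin, is on the minus strand at chr11:99477974-99493137. It had regions centred at -104 and -364 bp from its start with signals of 90 and 104 and of 98 and 91, and an intron 1 region of 54 and 55. Krt20, a keratin of the surface cells of stomach and intestine, differed from the other simple keratins. It lies on the minus strand at chr11:99428403-99438150 and had a peak of signal 70 in replicate 2, centred at -21 bp from its start and at percentile 72.9 of that list, with no peak there in replicate 1. With 2.5 kb on either side of a start Krt20 had a shared region too, centred at -1521 bp, with signals of 51 and 69.

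Among the stratified keratins, none of the 4 with a shared start region had one over the principal start with a signal above the median of all shared regions. Krt5, the basal type II keratin, had a region of signal 60 in replicate 1 and 66 in replicate 2 that was centred at -1033 bp and reached the 1 kb window only by its edge. Its partner Krt14 had a weak region in intron 1 (38 and 43), which counted because a second annotated start lies near it. Krt10, the type I keratin of suprabasal epidermis, had a region of 95 and 114 in coding exon 7, near a second annotated start and 3303 bp from the principal one, where the signal was 33 and 47. Krt1, the partner of Krt10, had a region of 60 and 77 in coding exon 9, also at a secondary start. The pair Krt4 and Krt13, which in internal squamous linings fills the suprabasal layers, had no start peak in either replicate, and neither did the basal keratin Krt15 or the appendage keratin Krt17. With the window narrowed to 250 bp around the principal start 9 keratins were left, and Krt10 was the stratified keratin among them.

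Outside these classes, Krt80 on chromosome 15 had regions centred at -339 and -59 bp from its principal start with signals of 86 and 87 and of 61 and 95. Krt78, a type II keratin of suprabasal cells, had a region in coding exon 2 with 73 and 68. It was centred 1026 bp downstream of the start and reached the 1 kb window only by its edge. The hair keratin Krt86 had 66 and 83 at -307 bp from its start, Krt75 had 28 and 41 at the same distance, and Krt33a had 44 and 44 in intron 3 beside a secondary start. Start peaks in a single replicate occurred at Krt222 (signal 21) and Krt36 (19) in replicate 1, and at Krt20, Krt25 (41) and Krt79 (38) in replicate 2. The remaining 34 keratins had no start peak in either list.

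The simple keratins also had the most open regions around the gene. A locus was taken as the gene plus 10 kb at each end, and neighbouring loci share regions where these flanks meet. At least 1 shared region lay in 47 of the 53 keratin loci, against 82.0% of all protein-coding genes. The median was 2 per keratin locus (lowest 0, highest 13), against 4 for all genes. Keratin loci are the shorter ones, with a median of 26.6 kb, against 37.4 kb for all genes. Per 10 kb the medians were 0.763 for the keratins and 0.791 for all genes, so around the genes, unlike at their starts, the keratins lay close to other genes. The 6 loci with none were Krt27, Krt34, Krt35 and Krt40 of chromosome 11 and Krt6b and Krt71 of chromosome 15.

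Simple keratin loci held 2 to 13 shared regions with a median of 7.5, and stratified loci 0 to 6 with a median of 3. Per 10 kb the medians were 2.91 for the simple and 1.05 for the stratified keratins. Without Krt23 the simple loci had a median of 7 shared regions. With 6 more keratins counted as stratified, the stratified median was 3. Inner root sheath loci held 0 to 4 (median 2), hair and nail loci 0 to 4 (1.5) and the other loci 1 to 8 (4.5). Chromosome 11 and chromosome 15 had the same median of 2, and per 10 kb 0.762 and 0.764. The ranges of the simple and stratified classes overlap between 2 and 6, where Krt20 and Krt7 lie.

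**Figure D2:**
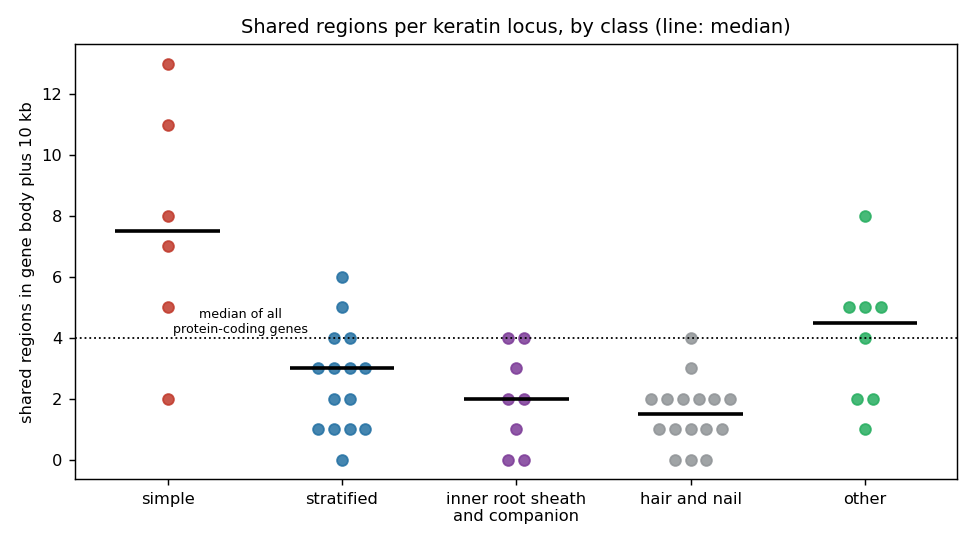
Number of shared regions in gene body plus 10 kb for each of the 53 keratins (1 point each), by class, with the class median as a bar and the median of all protein-coding genes, 4, as a dotted line. The simple keratins spread from 2 to 13 with a median of 7.5, and the stratified keratins from 0 to 6 with a median of 3.

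The 5 highest counts were those of Krt19, Krt23, Krt8, Krt80 and Krt18. Krt19 had 13 shared regions, from 14 peaks in replicate 1 and 17 in replicate 2. Krt23 had 11, from 12 and 11 peaks. Krt8 had 8, from 13 and 8 peaks, and the 5 peaks of replicate 1 without a partner had signals of 47 to 54. Krt80 had 8 from 11 and 11 peaks, and Krt18 had 7 from 8 and 7. Krt80 has the longest locus, 42.7 kb, and per 10 kb it had 1.87, below Krt15 (2.48) and Krt1 (1.97). Krt19, Krt23, Krt8 and Krt18 had 4.67, 3.13, 2.88 and 2.94 per 10 kb. Among stratified keratins Krt15 came highest with 6, although no peak lay within 1 kb of its starts, and it shares its flank with Krt19. Krt1 had 5, Krt10 and Krt14 had 4 each, Krt5 and Krt13 had 3, Krt4 had 2 and Krt17 had 1. The 5 regions of the Krt222 locus all lay at starts of the neighbouring gene Smarce1, a chromatin remodelling subunit.

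**Figure D3:**
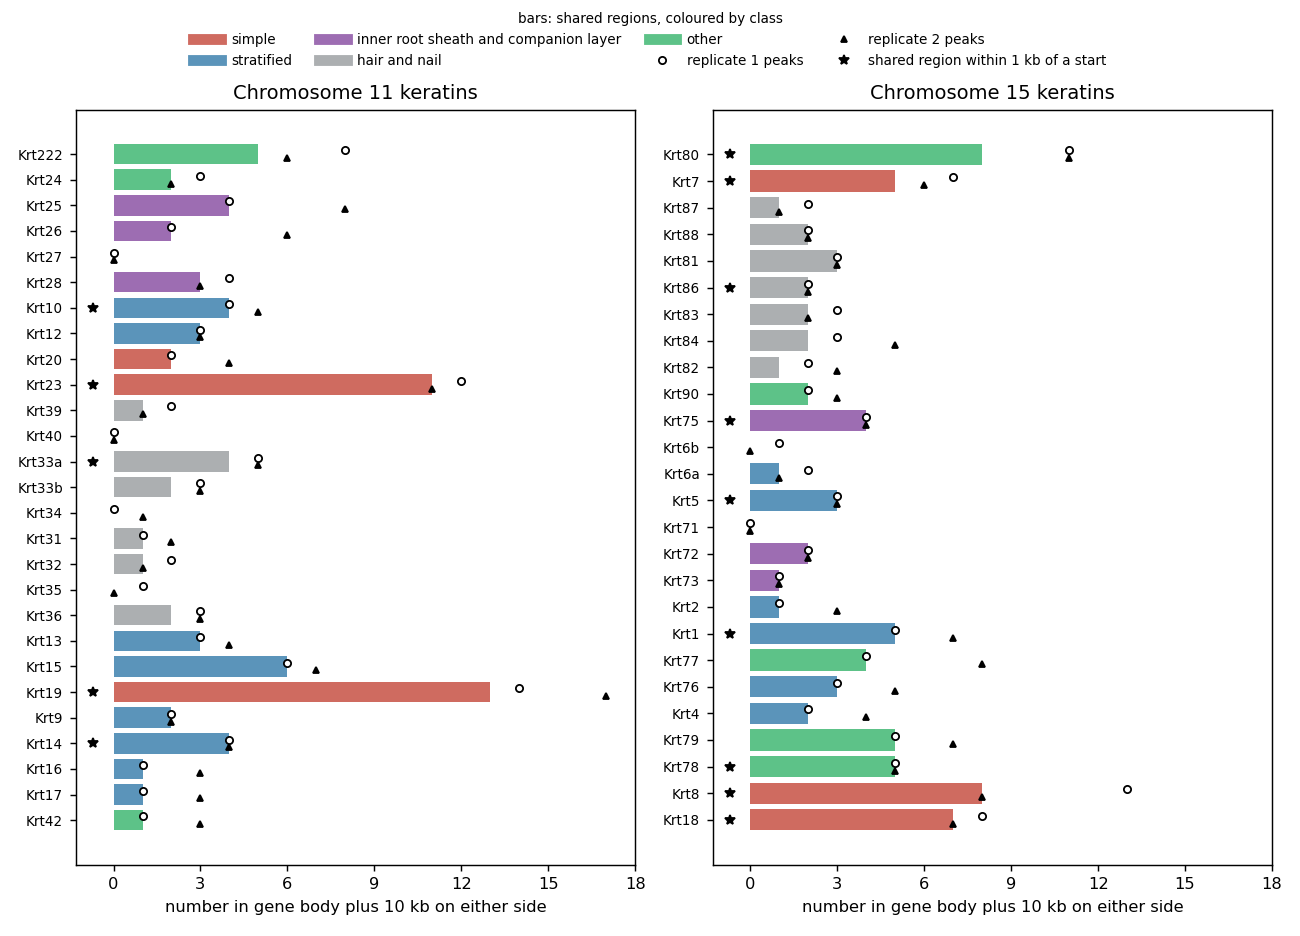
Number of shared regions (bars, coloured by class) and of peaks in replicate 1 (circles) and replicate 2 (triangles) in gene body plus 10 kb, for the 27 keratins of chromosome 11 and the 26 of chromosome 15 in genomic order; a star marks a shared region within 1 kb of a start. Krt19 and Krt23 on chromosome 11 and Krt80, Krt8 and Krt18 on chromosome 15 stand highest.

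Along the clusters the open regions were unevenly spread, with many nearest simple keratins and, on chromosome 15, many nearest Krt80 and Krt78 as well. The chromosome 11 cluster, with its outer flanks, spans 1057 kb and held 101 and 109 peaks, with 85 shared regions or 8.04 per 100 kb. The chromosome 15 cluster spans 705 kb and held 98 and 104 peaks, with 78 shared regions or 11.1 per 100 kb. The genome average, which takes in sequence far from genes, was 3.87 per 100 kb. Loci of all protein-coding genes had a median of 0.791 per 10 kb, which is close to the density of the chromosome 11 cluster. Of the peaks of replicate 1, 85.1% were shared on chromosome 11 and 80.6% on chromosome 15, against 77.6% genome-wide. For replicate 2 the shares were 79.8, 75 and 70.7%.

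By the nearest principal start, 37 of the 85 regions on chromosome 11 (43.5%) and 24 of the 78 on chromosome 15 (30.8%) lay nearest a simple keratin, a class with 3 genes in each cluster. On chromosome 15 the 5 keratins of the class of others had 26 regions nearest to them. There Krt8 and Krt80 had 11 each, Krt78 had 10, Krt18 had 9 and Krt7 had 4. On chromosome 11 Krt19 had 16, Krt23 had 11 and Krt20 had 10. The regions nearest a simple keratin had the higher signals. On chromosome 11 their median signal was 66 in replicate 1 and 78 in replicate 2, against 43 and 54 for the rest of the cluster. On chromosome 15 it was 77 and 90, against 52 and 66. Regions with a mean percentile of 90 or more over both lists made up 28 of the 163 cluster regions (17.2%), against 13.3% of all shared regions. Of these, 9 of 13 on chromosome 11 and 9 of 15 on chromosome 15 lay nearest a simple keratin.

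On chromosome 11, 13 shared regions lay between Krt20 and Krt23, a gap of 39.8 kb, with signals of 45 to 82 in replicate 1 and 57 to 96 in replicate 2. From Krt20 to 10 kb beyond Krt23 there were 20, which is 23.5% of the cluster's regions in 6.15% of its length. A second group of 19 ran from Krt15 across Krt19 to Krt9 (22.4% of the regions, 4.81% of the length), and 12 of them lay upstream of Krt19. The strongest of those, chr11:100158116-100158285, had a signal of 101 and 112 and is among the sequences shown. In 25 kb bins the fullest bin of this cluster held 13 regions, a number reached in 0.0367% of 109032 bins of the genome. The bin was picked as the fullest of 43, and 59.3% of the genome's bins held no region. Such shares, here and below, are descriptions and no test.

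On chromosome 15, the stretch from the start of Krt78 to the end of Krt18 held 26 regions in 77.7 kb, which is 33.3% of the cluster's regions in 11.0% of its length, and 12 of them had a mean percentile of 90 or more. Within it, 14 regions lay between Krt78 and Krt8, with signals of 39 to 109 in replicate 1 and 55 to 123 in replicate 2, and 8 lay wholly between Krt8 and Krt18, with 51 to 108 and 58 to 117. The strongest region away from a start, chr15:101984336-101984505 with 109 and 123, lay 20061 bp downstream of the start of Krt8. The fullest 25 kb bin of this cluster held 11 regions, a number reached in 0.129% of the bins of the genome.

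The stretch from Krt80 to Krt7 held 9 regions, which is 11.5% of the cluster's regions in 9.02% of its length, with signals of 31 to 86 and 53 to 95. A 25 kb bin there with 8 regions had a number reached in 0.786% of the bins of the genome.

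A pair of long stretches held fewer regions for their length than their clusters as a whole. Between Krt40 and Krt33a, where the keratin-associated protein genes of hair lie, 11 regions fell in 468 kb, or 12.9% of the regions in 44.3% of the cluster's length, with signals of at most 65 and 79. A shared region lay at a start of 1 of those 23 Krtap genes, against 66.4% of all protein-coding genes. Repeated sequence, which can cost reads, was not measured at the starts of the Krtap genes. On chromosome 15 the stretch from Krt6b to Krt73, which holds Krt5, had 5 regions in 126 kb, and none of them reached a mean percentile of 90. This was 6.41% of the cluster's regions in 17.9% of its length. It was sparse beside its own cluster, while the genome average of 3.87 per 100 kb, taken over all sequence, is about the same. Beside the loci of all protein-coding genes, with a median of 0.791 per 10 kb, it was sparse as well. The adjoining gap from Krt75 to Krt6b held 2 regions in 102 kb. Bins with no shared region made up 34.9% on chromosome 11, 17.2% on chromosome 15 and 59.3% of the genome.

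**Figure D4:**
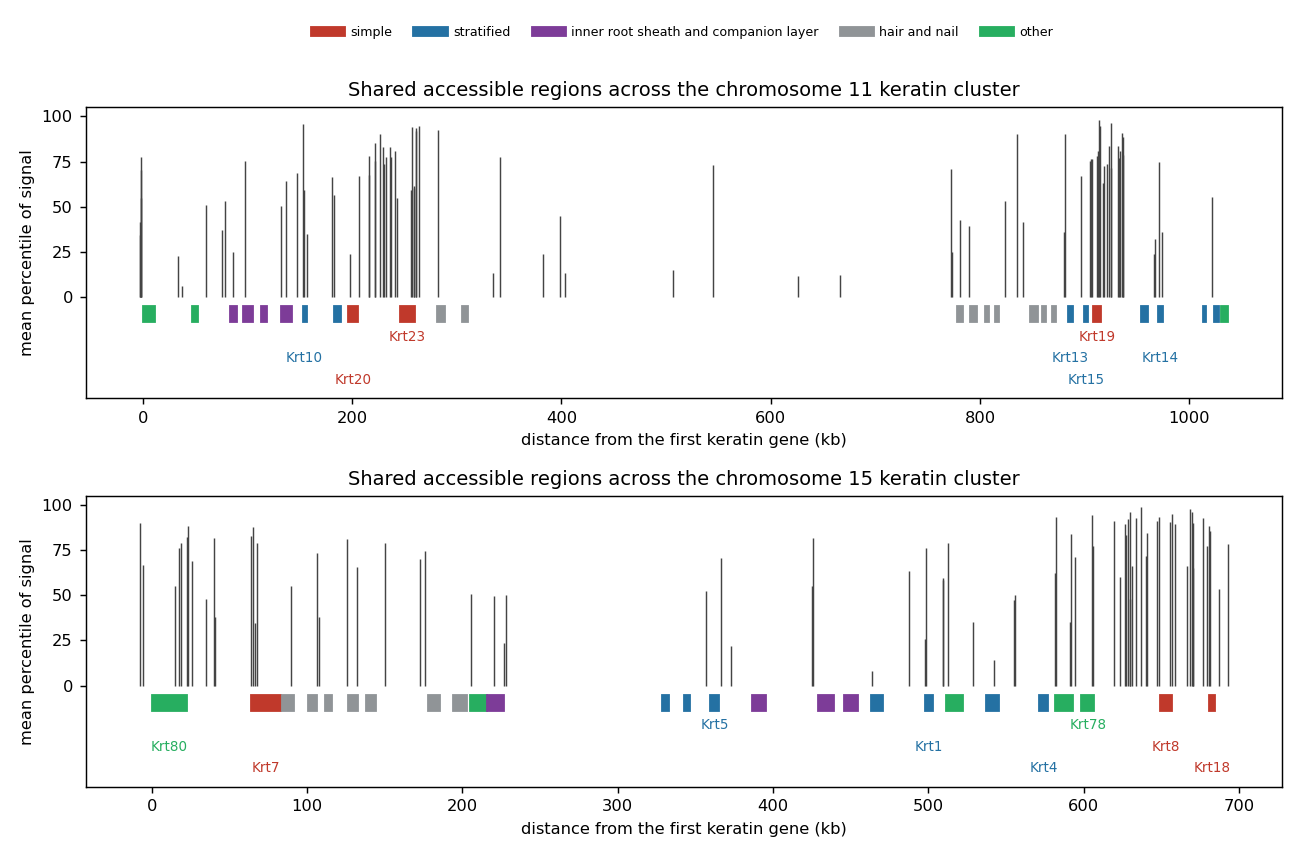
Shared regions (vertical lines) along the chromosome 11 cluster and the chromosome 15 cluster, by distance from the first keratin gene in kb; the height is the mean percentile of signal over both lists, and the boxes are the 53 genes, coloured by class. Lines crowd around Krt20 and Krt23, around Krt19, and from Krt78 to Krt18, and they are sparse in the wide gap on chromosome 11.

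Most cluster regions lay outside the bodies of the keratin genes, and 7 of them were at a start of another gene. Of the 163, placed by their centres, 122 lay outside keratin gene bodies, 24 in introns and 12 in coding parts of exons. Another 2 lay in untranslated parts of exons and 3 in parts of a gene outside its principal transcript. There were 25 at a keratin start and 138 away from one. Each of the 163 overlapped a hotspot, the authors' wider areas of raised cutting, in both replicates, as did each of the 105543 shared regions of the genome. Hotspots with a -log10 q value at the highest value in the files, 100, in both replicates held 70 of the 163 (42.9%), against 44.6% of all shared regions. The 3 outside genes nearest each cluster were counted too. On chromosome 11 Smarce1 had 5 shared start regions, Eif1 had 2 and Gast, which encodes the hormone gastrin, had 0. On chromosome 15 Eif4b had 2, Atg101 had 5 and 6030408B16Rik had 0. Of all protein-coding genes 66.4% had a shared start region.

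Keratin starts were poor in CpG. Within 500 bp of the principal start the observed over expected CpG ratio had a median of 0.323 over the keratins, against 0.571 over all genes. It ran from 0.108 at Krt31 to 0.583 at Krt87, and 0 of 53 reached 0.6, a value that 47.5% of all genes reached. Among all genes below 0.6 a shared start region was found at 41.2%, and among those at or above it at 94.4%. The keratins' 26.4% stands beside the first of these, and the part that CpG content has in it was not tested. By class the median ratio was 0.444 for simple, 0.271 for stratified, 0.485 for inner root sheath and companion, 0.327 for hair and nail and 0.277 for the other keratins. The inner root sheath class, with the highest median, had a shared start region at 12.5% of its members. Keratins with a shared region at the principal start had a median ratio of 0.364, and the other keratins 0.301.

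The TATA box, the promoter element near the start of many tightly regulated genes, searched as TATAAA on both strands, was frequent before keratin starts. A match to these letters stood within the 150 bases before the principal start in 23 of 53 keratins (43.4%), against 7.33% of all genes. Its position and strand were not considered and variants of the box were not searched, so a match need not be a working TATA box. Matches were found at 1 of 6 simple keratins, Krt20, at 6 of 15 stratified keratins and at 6 of 8 inner root sheath keratins. They were also found at 9 of 16 hair and nail keratins and at 1 of the 8 others. Of the keratins with a shared region at the principal start 2 of 11 held a match (18.2%), and of the others 21 of 42 (50%). In the same window the KLF and SP motif GGGNGNGG, a GC-rich element, matched 35.8% of keratins and 44.8% of all genes. The ETS motif GGAAGT matched 9.43 and 14.5%, the FOXA motif TGTTTNC 13.2 and 9.30%, the TEAD motif GGAATG 7.55 and 6.43%, the GATA motif AGATAA 5.66 and 4.72%, and the GRHL motif AACCNGTT 1.89 and 0.904%. The AP-1 motif TGANTCA matched 0 of 53 keratins and 3.51% of all genes, and CTCF, HNF4, HNF1 and the p53 family motif also matched 0 keratins, beside 0.466, 0.215, 0.0365 and 0.215% of all genes.

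In the sequences shown, KLF and SP matches stand before Krt8 (bases 131 to 138), before Krt18 at 3 places, before Krt19 and at 2 places before Krt7. Krt8 also has a GATA match at bases 52 to 57 and an ETS match at 86 to 91, and Krt19 an ETS match at 52 to 57. These GATA and ETS matches of Krt8 and Krt19 lie upstream of the shared regions, outside them. The same holds for the first of the Krt18 matches (bases 5 to 12). The Krt23 region has a FOXA match (TGTTTNC) at bases 141 to 147. The Krt5 region has a FOXA match at 102 to 108 and an AP-1 match (TGANTCA) at 140 to 146, and the Krt14 region has 2 KLF and SP matches. The chromosome 11 region upstream of Krt19 has an AP-1 match at 96 to 102, and the chromosome 15 region between Krt78 and Krt8 a TEAD match (GGAATG) at 106 to 111. None of these matches overlap each other.

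Across the 163 cluster regions, in the central 150 bases of each, matches were counted beside those in all shared regions. AP-1 matched 14.1% of cluster regions and 12.1% of all, KLF and SP 36.2 and 28.4%, FOXA 16.6 and 17.4%, GATA 7.98 and 8.82%, and TEAD 11.7 and 9.22%. ETS matched 10.4 and 15.1%, the grainyhead motif GRHL (AACCNGTT) 1.23 and 2.05%, HNF4 (CAAAGTCCA) 1.23 and 0.965%, CTCF 3.68 and 4.42% and the TATA box 6.75 and 5.72%. HNF1 and the p53 family motif had 0 matches in the clusters, and 0.134 and 0.281% in all shared regions. These are matches of letters, and binding was not measured.

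Keratin genes arose by duplication, and reads from near-identical copies can be lost or misplaced, depending on the authors' alignment. The share of 32-base words in the start windows that occur again in the genome was 0 to 26.6% (median 4.37%) for the 14 keratins with a shared start region and 0 to 36.6% (median 3.37%) for the others. The highest shares were at Krt81 (36.6%), Krt6a and Krt6b (34.3% each), Krt16 (34.0%) and, among those with a region, Krt86 (26.6%). Their counts are the least certain of the set.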

How the data were processed

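DNase-seq peaks and hotspots of 2 newborn stomach libraries were used, in 1 group as labelled. Per the deposited file lists the authors called both kinds of interval on build mm10 from each replicate's own filtered alignments. The peak signal, as deposited by the authors, is a whole number of up to 149 on the chromosomes used, with no unit or scaling stated. The column of the deposited hotspot files used here holds -log10 q values, per their format. Aligner, caller and read numbers were not given in the sources used here. Depth is therefore unknown, and it decides which weak sites could be called. Peaks on the 19 autosomes, X and Y were kept (139374 of 139654 and 152779 of 153178). In replicate 1 5.60% and in replicate 2 4.91% of peaks overlapped another of the same list.

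Shared regions, joined from peaks with a partner at 1 bp or more, were counted within 1 kb of every annotated transcript start and in the gene body plus 10 kb. A percentile is the rank of a signal within its list. Genes were those of GENCODE M21, with 27 repeated symbols dropped. In total 12 motifs were searched. HNF1, p53 family and CTCF, whose consensus is long, are given by name. The text names every simple keratin, every keratin with a shared start region, 8 basal and suprabasal keratins and the 5 fullest loci; others named were picked after their values were seen. Members, classes and lists were chosen with earlier results of these data known. Nothing says that the replicates came from separate animals. Counting was checked on simulated peaks. The work used Python 3.11.15, numpy 2.4.6 and pandas 2.3.3.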

Additional observations from a re-analysis of the deposited data

How the results depend on the processing

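The comparisons were recomputed under 58 alternatives in all, and 37 stayed within the spread between replicates or, for counts, within 1.5 times. This spread is the standard deviation of the values from the 2 single replicates, which are themselves among the alternatives. It was 0 for the median per keratin locus and for its difference between chromosomes. The 37 therefore says little about how stable the results are. Both differences at starts and the simple minus stratified difference in medians kept their sign throughout. The number of keratins with a shared start region stayed between 10 (250 bp around each start) and 18 (2.5 kb). The chromosome 11 minus chromosome 15 difference in percent of open starts, -16.1 points, was -19.7 with the stronger 50% of peaks, -19.9 with hotspots, -8.26 with 250 bp, -19.7 with the gene's 5′ end and -19.7 with the principal start, an alternative chosen after seeing the data; from single replicates it ran from -12.5 to -8.69. The simple minus stratified difference, 56.7 points, was 76.7 with 250 bp, 70.0 with the 5′ end and 70.0 with the principal start, and 56.7 to 73.3 from single replicates. The median per keratin locus, 2, was 3 in each single replicate (3 to 3), 1 with the stronger 50% of peaks, 0 in the gene body alone and 10 with 50 kb flanks. The chromosome 11 minus chromosome 15 difference in that median, 0, was -0.5 with the stronger 50% of peaks, -1 in the gene body alone and 3 with 50 kb flanks, so the clusters have no stable order by it. The simple minus stratified difference in median, 4.5, was 7 with 50 kb flanks and 4.5 to 7 from single replicates. Where values moved, the cause was not tested. No paired analysis was possible because there is a single group. Depth is unknown, and with 2 libraries of 1 donor label the spread between animals cannot be given.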
